A study of Psophocarpus tetragonolobus with 12 samples.

Results

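The 6 winged bean (Psophocarpus tetragonolobus) genes described here were annotated as enzymes that attach sugars and acyl groups to anthocyanins, and they were found by gene identifier among the 30392 genes of the expression table. All 6 were measured, that is, they reached 1 FPKM (a read count relative to gene length and to the mapped fragments of the library) in at least 1 stage. They were selected on their FPKM values over the 4 stages, partly for the size of the difference between Day 15 and Day 45, so their levels and changes are given as a description and no test was applied to them. RNA was sequenced from pods of the purple-podded winged bean line FP15, the maternal parent in the study, collected 15, 30, 37 and 45 days after anthesis (called Day 15 to Day 45). The plants were untreated and grown in a chamber, and 3 libraries of polyadenylated RNA, each from another plant, were made per stage, giving 12 libraries. The table holds 1 whole-number FPKM value per gene and stage. There was therefore no replicate spread to set a difference against, and the only error that could be given is rounding, 0.5 FPKM in either direction.

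Anthocyanins are the red to blue flavonoid pigments of plants. The coloured core is made by dihydroflavonol reductase and anthocyanidin synthase and is then stabilised by a UDP-sugar dependent glucosyltransferase, which usually puts glucose on the 3 position. Further glucose, coumaroyl and malonyl groups can follow, and acyltransferases of the BAHD family add the acyl groups, which shift the colour and make the pigment more stable in the vacuole.

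By the matches in the study's gene table, the 6 genes fall into 3 glucosyltransferases and 3 acyltransferases. Psote03G0138100 (Chr03.1, 27129444 to 27130781) was matched to Arabidopsis UGT78D2, a flavonoid 3-O-glucosyltransferase. Psote07G0019700 (Chr07.1, 2712324 to 2713739) and Psote09G0032600 (Chr09.1, 4283933 to 4290136) carry the tag UFGT, the usual abbreviation of UDP-glucose flavonoid 3-O-glucosyltransferase. Psote03G0355100 (Chr03.5, 20784970 to 20788631) had been listed with the glucosyltransferases, but its Arabidopsis match, A3Glc:6″CouT1, is a coumaroyltransferase that acts on the glucose of anthocyanin 3-glucosides. It is therefore counted here as an acyltransferase. Pt5MAT1 (Psote05G0030500, Chr05.1, 4251440 to 4252873) was matched to Arabidopsis 5MAT, which malonylates the 5-glucoside. Pt5MAT2 (Psote05G0030400, Chr05.1, 4237252 to 4238676) was named by the study as a malonyltransferase and its match belongs to the same acyltransferase family, although it bears the tag UFGT. These roles rest on sequence matches, and no enzyme activity was measured. Coordinates are those of the deposited table, which refer to an assembly of the green-podded paternal parent Ma3. No span of the 6 genes overlapped that of another gene.

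The 3 glucosyltransferase genes had their highest level at Day 15, and the 3 acyltransferase genes had theirs later. Psote03G0138100 was the highest of the 6 at Day 15 and Day 30, at 110 and 73 FPKM. Psote03G0355100, listed at 0 at Day 15, was the highest at Day 37 and Day 45, at 71 and 152 FPKM. Pt5MAT2 was highest at Day 30 with 51 FPKM, and Pt5MAT1 at Day 45 with 23 FPKM. The plot of levels by stage shows the glucosyltransferase curves running down and the acyltransferase curves running up or through a maximum.

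**Figure D1:**
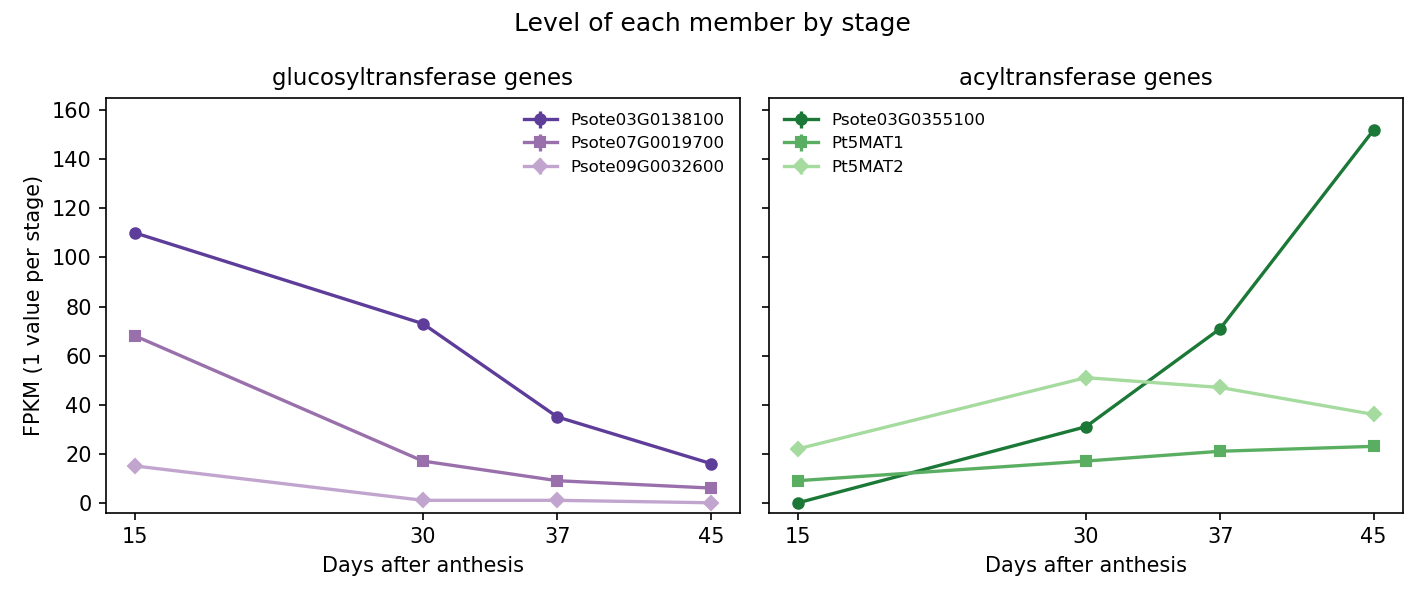
FPKM of the 3 glucosyltransferase genes (left) and the 3 acyltransferase genes (right) against days after anthesis, with 1 value per stage and bars for the 0.5 FPKM of rounding. Psote03G0138100 goes from 110 to 16 FPKM and Psote03G0355100 from a listed 0 to 152 FPKM.

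Among the glucosyltransferases, Psote03G0138100 was at 110, 73, 35 and 16 FPKM over the 4 stages in order. It was lower at each later stage, and its Day 45 level was 6.88-fold lower than at Day 15 (6.64 to 7.13-fold with rounding). A gene is called higher or lower here where log2(FPKM+1) differs by at least 1 (2-fold), a scale that understates the change of low genes. On it, Psote03G0138100 differed by -0.58 from Day 15 to Day 30, which is under the threshold, by -1.04 to Day 37 and by -1.08 to Day 45. Most of its decline in log2 terms thus lay after Day 30, at -0.15 per day between Day 30 and Day 37 against -0.04 per day before. Both later calls were just past 2-fold and were lost, at -0.85 and -0.74, when each stage was scaled to the PCR reference genes PtELFa and PtTUB6. Among the 22459 measured genes, its level stood at percentile 95.6 at Day 15 and 59.8 at Day 45.

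Psote07G0019700 was at 68, 17, 9 and 6 FPKM over the 4 stages. This copy was at 25% of its Day 15 level by Day 30, a difference of -1.94 on the log2(FPKM+1) scale or 4.0-fold (3.86 to 4.15-fold with rounding). The 2 later steps, -0.85 and -0.51, were not called. The uncalled second step nevertheless ran at nearly the rate of the first. The steps last 15, 7 and 8 days, and per day the gene differed by -0.13, -0.12 and -0.06. Its Day 45 level was 11.3-fold lower than at Day 15 (10.4 to 12.5-fold).

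Psote09G0032600 was at 15, 1, 1 and 0 FPKM. Its level was 15-fold lower at Day 30 than at Day 15, but with a listed 1 as the divisor rounding allows 9.67 to 31-fold. The gene was thus close to the lower limit of the table at every stage after Day 15. Its last step is called lower (-1) only because it went from a listed 1 to a listed 0. That call was lost, at -0.97, -0.9975 and -0.96, with equal stage sums, median of ratios and reference scaling, and at the rounding bound nearest to no change, which was 0. Psote03G0138100 therefore kept 66.4% of its maximum at Day 30, when Psote07G0019700 was at 25% and Psote09G0032600 at 1 FPKM.

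Together the 3 glucosyltransferase genes summed to 193, 91, 45 and 22 FPKM. FPKM is per gene length, so levels of different genes can be added. The sum was 2.12-fold, 2.02-fold and 2.05-fold lower at the successive steps, and 8.77-fold lower at Day 45 than at Day 15 (8.15 to 9.49-fold with rounding). These steps last 15, 7 and 8 days, so per day the sum fell faster in log2 terms after Day 30. Psote03G0138100 made up 57% of it at Day 15 and 80.2% at Day 30, and 72.7% remained from this gene at Day 45. Without Psote03G0138100 the sum went from 83 to 6 FPKM, 13.8-fold lower.

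Among the acyltransferases, Psote03G0355100 had a listed value of 0 at Day 15, followed by 31, 71 and 152 FPKM. A listed 0 allows any value under 0.5 FPKM, so no fold is given against Day 15. The gene then was 2.29-fold higher at Day 37 than at Day 30 (2.24 to 2.34-fold with rounding) and 2.14-fold higher at Day 45 than at Day 37 (2.12 to 2.16-fold). Its steps on the log2(FPKM+1) scale were 5, 1.17 and 1.09, and it was called higher at all 3, as were 45 of the measured genes (0.2%). None of the 6 was called lower at all 3 steps, as 0.205% of the measured genes were. Its total difference of 7.26 (6.67 to 7.26 with rounding) was at rank 14 among the 22459 measured genes, from the highest. The size of this difference rests on the listed 0, and it was 10.57 with a pseudocount of 0.1 in place of 1. The gene went from percentile 2.55 to 77.4, 91.2 and 96.9. Its level at Day 30 was 20.4% of that at Day 45, so most of the level was reached in the last 15 days sampled.

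Pt5MAT1 was at 9, 17, 21 and 23 FPKM, the malonyltransferase copy with the steadier course. None of its steps was called (0.85, 0.29 and 0.13 on the log2(FPKM+1) scale), and no step was called for 15801 measured genes, 70.4% of them. Over the whole period it was nevertheless 2.56-fold higher (2.37 to 2.76-fold with rounding), a difference of 1.26 that is called.

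Pt5MAT2 was at 22, 51, 47 and 36 FPKM, an early maximum followed by a decline to 70.6% of it. It was 2.32-fold higher at Day 30 than at Day 15 (2.24 to 2.4-fold), a difference of 1.18 that was 0.85, and not called, when scaled to PtELFa and PtTUB6. The later steps of -0.12 and -0.38 were not called, and with the same scaling they were 0.07 and -0.03. The decline after Day 30 thus depended on the scaling. Day 45 against Day 15 (0.69) was not called either.

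Pt5MAT2 was higher than Pt5MAT1 at every stage, by 2.44-fold at Day 15, 3-fold at Day 30, 2.24-fold at Day 37 and 1.57-fold at Day 45 (1.51 to 1.62-fold with rounding). The ratio was thus highest at Day 30 and lowest at Day 45. The 2 genes lie 12.8 kb apart, and their sum was 31, 68, 68 and 59 FPKM. Reads that fit both neighbouring copies could be assigned to either, and the treatment of such reads is unknown here. Psote05G0030200, 29.9 kb before Pt5MAT2 and matched to Arabidopsis PMAT2, a phenolic glucoside malonyltransferase, was at 13, 36, 40 and 50 FPKM. The 3 neighbours together were at 44, 104, 108 and 109 FPKM, nearly level from Day 30 on. PtMYB113a, a MYB-type activator of anthocyanin genes that lies 747 kb from Pt5MAT1, was at 30, 11, 5 and 4 FPKM. Its paralogue PtMYB113b was at 9, 6, 5 and 6 FPKM.

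Together the 3 acyltransferase genes summed to 31, 99, 139 and 211 FPKM, 6.81-fold higher at Day 45 than at Day 15 (6.45 to 7.2-fold with rounding). Most of this came from Psote03G0355100: without it the sum went from 31 to 59 FPKM, 1.9-fold higher, with no increase after Day 30 (68 FPKM at Day 30 and at Day 37). Pt5MAT2 made up 71% of the acyltransferase sum at Day 15 and 17.1% at Day 45, and Psote03G0355100 made up 31.3% at Day 30 and 72% at Day 45.

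**Figure D2:**
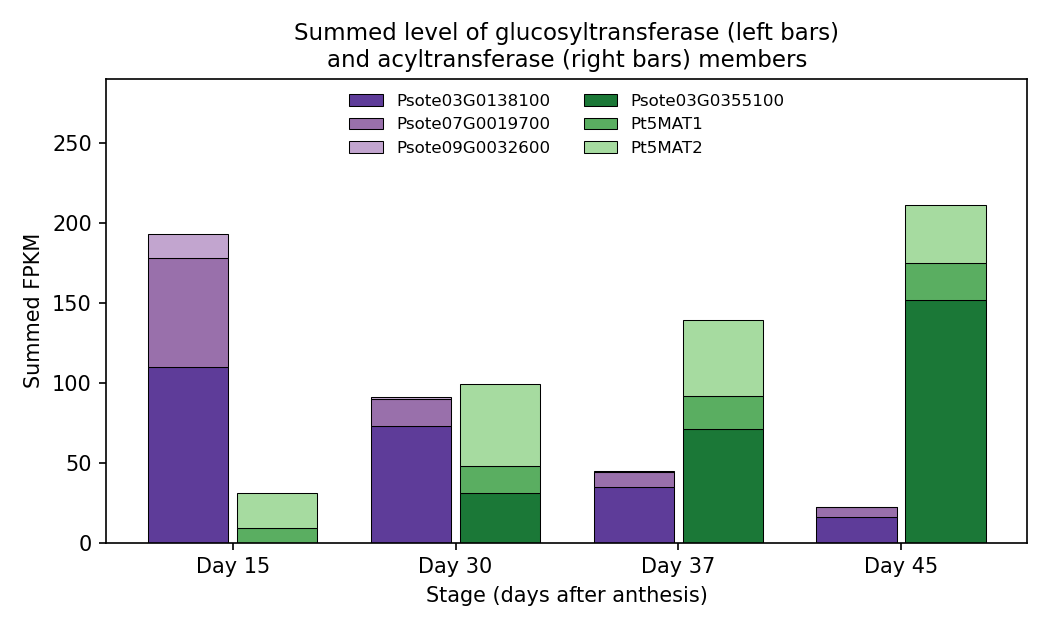
Summed FPKM of the 3 glucosyltransferase genes (left bars) and the 3 acyltransferase genes (right bars) at each stage, with the segments of a bar showing single genes. The left bars go from 193 to 22 FPKM and the right bars from 31 to 211 FPKM, and they are nearly equal at Day 30 (91 and 99 FPKM).

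Set against each other, the acyltransferase sum was 0.161 of the glucosyltransferase sum at Day 15, 1.09 of it at Day 30 (1.05 to 1.12 with rounding), 3.09 times it at Day 37 and 9.59 times it at Day 45 (8.91 to 10.4). All 6 genes together were at 224, 190, 184 and 233 FPKM. Acyltransferases made up 13.8%, 52.1%, 75.5% and 90.6% of that total, so the make-up differed far more than the total did. The size of this shift rests on counting Psote03G0355100 as an acyltransferase, since this gene alone made up 65.2% of the total at Day 45. Counted as a glucosyltransferase, as first listed, it would leave the malonyltransferases (31, 68, 68 and 59 FPKM) the smaller group at every stage.

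The order of the 6 genes changed with stage. At Day 15 it was Psote03G0138100, Psote07G0019700, Pt5MAT2, Psote09G0032600, Pt5MAT1 and Psote03G0355100. At Day 30 Pt5MAT2 and Psote03G0355100 had moved to the places next to Psote03G0138100, and Psote07G0019700 and Pt5MAT1 were tied at 17 FPKM. At Day 37 and Day 45 the first places were held by Psote03G0355100 and Pt5MAT2. At Day 45 all 3 acyltransferases were above all 3 glucosyltransferases, with 116 FPKM between Psote03G0355100 and Pt5MAT2. The tie at Day 30 was the only pair of neighbours in any order whose rounding intervals overlapped, and whether other neighbours differ beyond the spread between plants is unknown.

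Counted by step, 2 of the 6 genes were called higher (Psote03G0355100 and Pt5MAT2) and 2 lower (Psote07G0019700 and Psote09G0032600) at Day 30 against Day 15, where 9.47% of the measured genes were higher and 13.7% lower. At Day 37 against Day 30, Psote03G0355100 was higher and Psote03G0138100 lower, beside 3.47% and 3.69% of the measured genes. At Day 45 against Day 37, Psote03G0355100 was again higher and Psote03G0138100 and Psote09G0032600 were lower, beside 3.53% and 5.13%. At Day 45 against Day 15, Psote03G0355100 and Pt5MAT1 were higher and the 3 glucosyltransferases lower, beside 14.3% and 19.4%. Nothing is read from these counts, since the genes were picked with their changes known, and consecutive comparisons share a stage. Among all genes called, 40.8% were higher at the first step, 48.5% at the second and 40.7% at the last. Rescaling moved these splits to between 22.8% and 44.6%, 20.9% and 76.1%, and 41.6% and 81.4%.

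**Figure D3:**
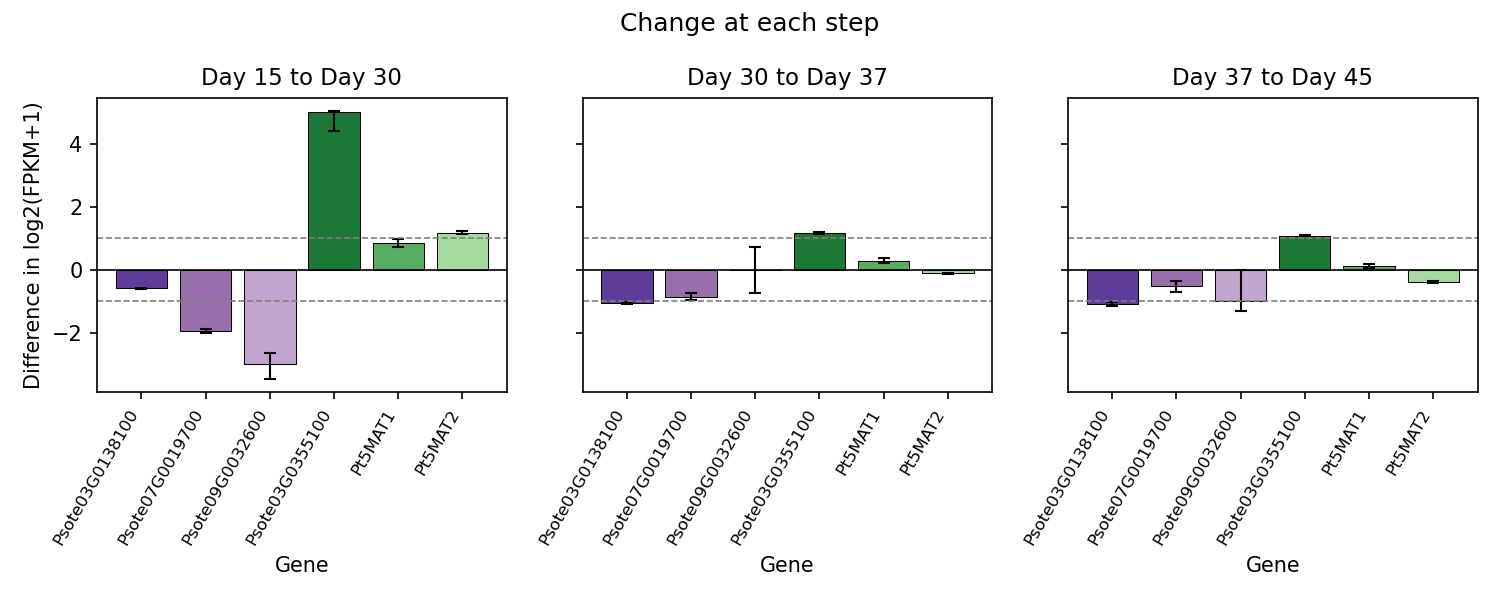
Difference in log2(FPKM+1) of each of the 6 genes at the 3 successive steps (bars), with error bars for the range that rounding allows and dashed lines at the 2-fold threshold of 1. Psote03G0355100 is above the upper line in each panel, and the error bar of Psote09G0032600 at the last step reaches 0.

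**Figure D4:**
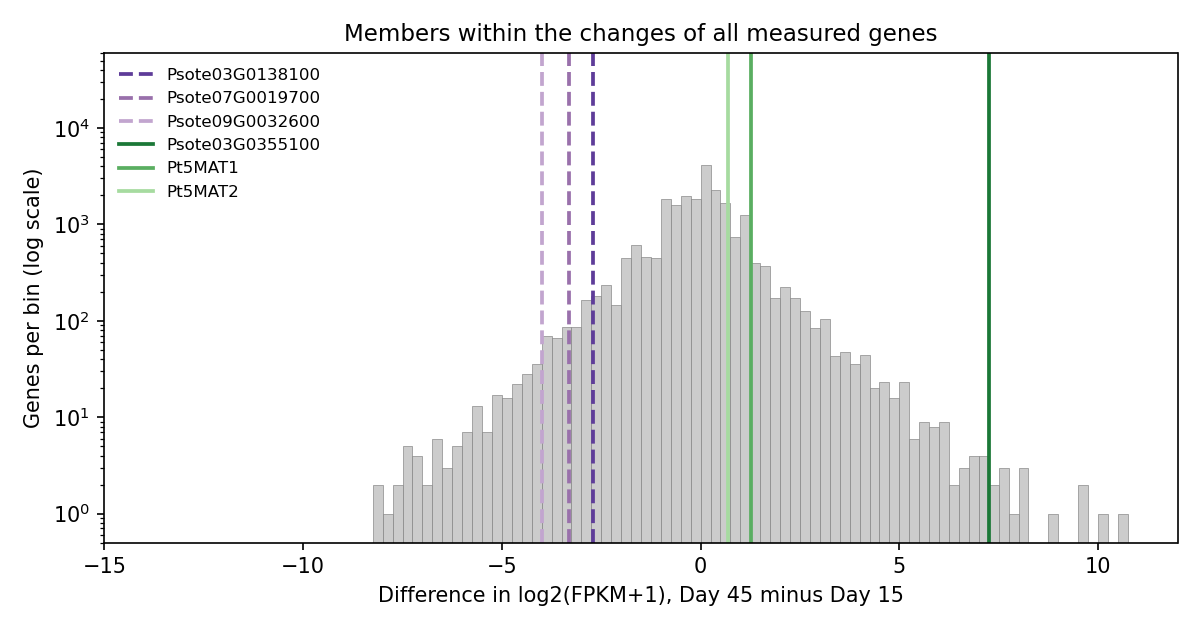
Number of measured genes (log scale) per bin of the difference in log2(FPKM+1) between Day 15 and Day 45, with a vertical line for each of the 6 genes. The median of all 22459 genes is 0, and the lines run from -4 for Psote09G0032600 to 7.26 for Psote03G0355100.

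The likeness of stage patterns was measured as the distance between log2(FPKM+1) values over the 4 stages after each gene's own mean was taken off, so that shape counts and level does not. Each of the 6 genes was set beside the 274 other measured genes of the study's anthocyanin gene table. The nearest to Psote03G0138100 were 3 genes of the core pathway. These were the flavanone 3-hydroxylase gene Psote03G0189000 (distance 0.282, with 129, 75, 42 and 15 FPKM), the anthocyanidin synthase gene Psote01G0255900 (0.323, with 266, 226, 110 and 53 FPKM) and the dihydroflavonol reductase gene Psote08G0200700 (0.472, with 164, 94, 60 and 33 FPKM). Over the whole table, 8 genes were closer to Psote03G0138100 than the first of these and 51 closer than the last. Of the 3 measured anthocyanidin synthase copies, 1 was higher and 1 lower at Day 45 than at Day 15. Of 6 measured dihydroflavonol reductase copies 3 were higher and 2 lower, where 14.3% of all measured genes were higher and 19.4% lower. The higher anthocyanidin synthase copy was at only 1 to 3 FPKM. Among the higher dihydroflavonol reductase copies, 1 went from a listed 0 to a listed 1 FPKM. The dihydroflavonol reductase copy with the highest level, Psote03G0413000, was at 56, 190, 181 and 143 FPKM, 2.55-fold higher at Day 45 than at Day 15.

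The copies that were low after Day 15 had other neighbours in shape. Nearest to Psote07G0019700 were matches of the transcription factors SPL13 (Psote05G0164000, distance 0.211, with 32, 9, 4 and 3 FPKM) and BZIP44 (Psote08G0201800, 0.354, with 98, 27, 17 and 8 FPKM), followed by Psote07G0110600 (0.391), with 7, 34 and 57 genes of the whole table closer than each. Nearest to Psote09G0032600 were a MYB15 match (Psote01G0129700, 0.167, with 13, 1, 1 and 0 FPKM), the UGT88A1 match Psote09G0111300 (0.324) and Psote07G0019700 (0.829). Of the whole table, 6, 17 and 219 genes were closer to Psote09G0032600 than these.

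For Psote03G0355100, no gene of the whole table was nearer than Psote04G0199300 (distance 0.324), which was at 4, 117, 333 and 672 FPKM. Its Arabidopsis match BGLU10 belongs to a glycoside hydrolase family and is a glucosyltransferase that takes glucose from an acyl-glucose and adds it to coumaroylated anthocyanin. Psote04G0199300 spans 37629 bases on Chr04.2 and its span overlaps those of 3 other genes, so with unstranded libraries its reads cannot be told apart from theirs where they share sequence. Of these, Psote04G0199400, which lies inside it, was at 8, 217, 638 and 1317 FPKM. The next in shape to Psote03G0355100 were an FT/TFL1 match (Psote05G0180000, 0.828, with 1, 50, 84 and 143 FPKM) and an ABCC4/ABCC14 transporter match (Psote04G0199900, 1.46, with 1, 19, 47 and 88 FPKM), and 12 and 31 genes of the whole table were closer than these.

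The malonyltransferase patterns were shared with many genes. Nearest to Pt5MAT1 were the UFGT-tagged Psote08G0091700 (0.204), the ACC1 match Psote02G0085400 (0.208, acetyl-CoA carboxylase, the source of malonyl-CoA) with 9, 21, 24 and 26 FPKM, and a MYB5 match at 1 to 3 FPKM (Psote08G0120800, 0.217). However, 251 genes of the whole table were closer than the first of these. Nearest to Pt5MAT2 were an ERF1A match (Psote07G0034800, 0.283), a BBX22/BBX23 match (Psote03G0317300, 0.307) and the chalcone isomerase-like Psote02G0128700 (0.314, with 119, 216, 251 and 204 FPKM), and 112 genes were closer than the first. Each of these likenesses rests on 4 values from the same 4 stages.

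The other decoration genes of the same table, 13 in number and all measured, differed in both directions within both enzyme families. At Day 45 against Day 15, 6 were higher, 4 lower and 3 neither, where 14.3% of all measured genes were higher and 19.4% lower. Their median difference was 0.60 in log2(FPKM+1), beside 0 over all measured genes. The higher call of Psote02G0306400 and the lower call of Psote07G0020200 rest on steps between listed values of 0 and 1. At the rounding bound nearest to no change, 5 were higher and 3 lower. Among the UDP-sugar transferases, Psote07G0242800, matched to the anthocyanin 5-O-glucosyltransferase UGT75C1, was at 36, 43, 54 and 55 FPKM, 1.53-fold higher and not called. Its product in Arabidopsis is the 5-glucoside on which 5MAT acts. Of 2 further copies tagged UFGT, Psote06G0097200 was at 1, 10, 11 and 11 FPKM and Psote08G0091700 at 11, 20, 21 and 25 FPKM. Both were called higher, opposite in direction to the 3 glucosyltransferases above, but neither passed 25 FPKM. Lower were Psote09G0111300, at 34, 4, 4 and 2 FPKM, and Psote02G0200100, matched to the flavonol 7-O-rhamnosyltransferase UGT89C1, at 12, 4, 4 and 3 FPKM. Psote07G0020200 was also called lower, on a listed 1 at Day 15 and a listed 0 at Day 45. The UDP-sugar transferases other than the 3 described first summed to 113, 95, 107 and 109 FPKM, so the decline of the family from 306 to 131 FPKM lay in those 3.

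Of the other acyltransferase matches, Psote05G0030200 was called higher (3.85-fold), while the coumaroyltransferase matches were Psote09G0046300, lower at 26, 17, 13 and 9 FPKM, and Psote05G0028800, level at 3 FPKM. Psote09G0046300 thus ran opposite to Psote03G0355100, which has the same kind of match. The acyltransferases other than the 3 described first summed to 42, 56, 56 and 62 FPKM. The second BGLU10 match, Psote05G0090700, reached only 3 FPKM, and the serine carboxypeptidase-like Psote02G0306400 only 1 FPKM.

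**Figure D5:**
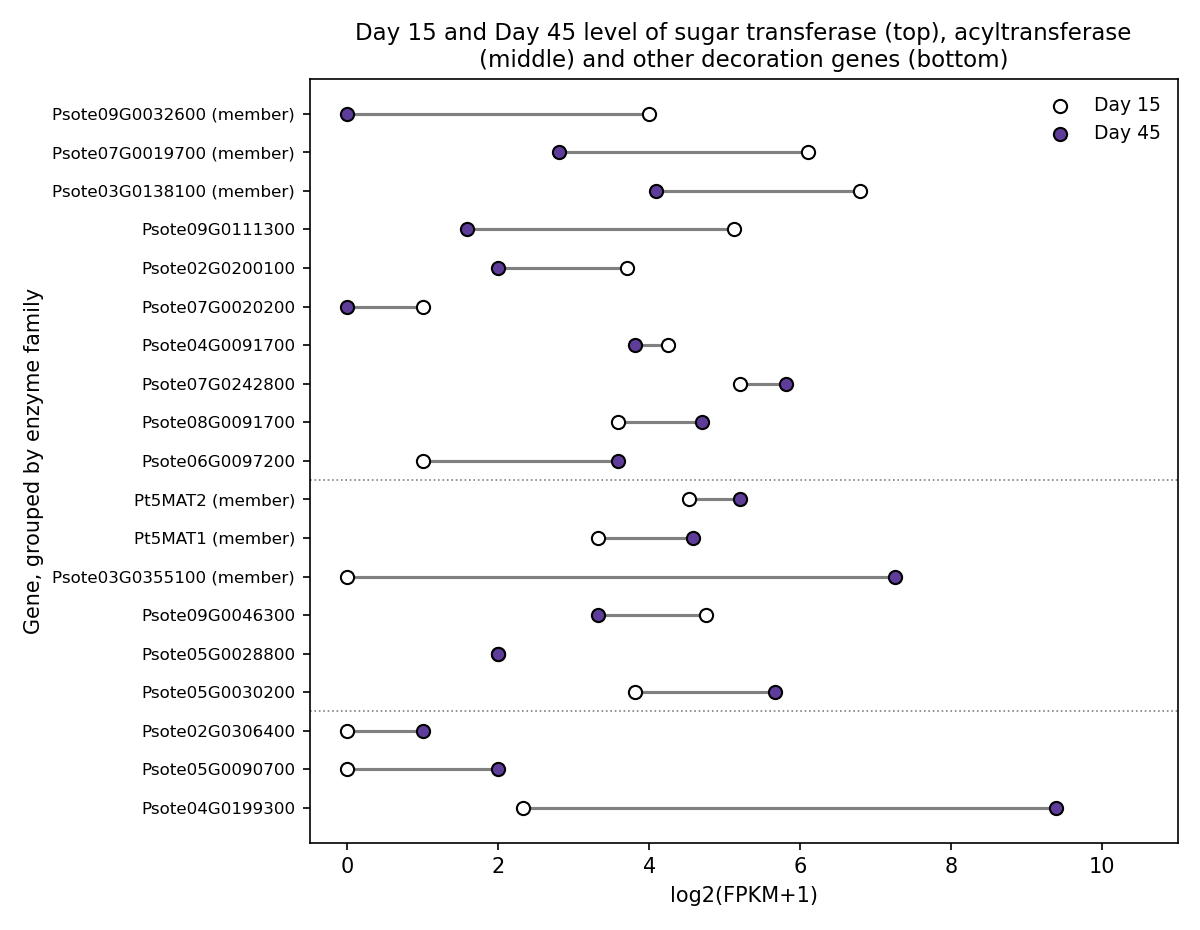
Level in log2(FPKM+1) of the 6 genes and the 13 other decoration genes at Day 15 (open points) and Day 45 (filled points), grouped as UDP-sugar transferases (top), acyltransferases (middle) and others (bottom). Psote03G0355100 and Psote04G0199300 have the longest lines to the right, and the points of Psote05G0028800 coincide at 3 FPKM.

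The methods of the study name pod and seed tissues, whereas the labels of these libraries name pods. Of 51 seed storage protein genes listed, 23 to 27 reached 1 FPKM at a stage, and they summed to 791, 1134, 1214 and 1288 FPKM, or to 409, 281, 374 and 502 FPKM without the highest gene, Psote06G0099600. The vicilin-like Psote04G0317000 went from a listed 0 at Day 15 through 4 and 29 to 58 FPKM, and the 11S globulin gene Psote03G0078700 went from 148 to 12 FPKM. Of the 35 listed genes that were measured, 13 were higher at Day 45 than at Day 15, 16 lower and 6 neither. Among all measured genes 14.3% were higher and 19.4% lower. The median difference of the list was -0.22 in log2(FPKM+1), so it ran in both directions, with larger shares called than among all genes. Their part in the results was not tested, and a lower share of cells of a type and less RNA per cell cannot be told apart in such samples. The reference genes PtELFa (elongation factor) and PtTUB6 (tubulin) were at 556 to 707 and 326 to 656 FPKM. The FPKM of all genes summed to between 709255 and 795780 per stage, and the depth behind the values is unknown from the table.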

How the data were processed

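Pods of FP15 were sampled at 4 stages with 3 libraries each, grouped by the labels. The submitters' processing notes name fastp, HISAT2 2.0.5 and featureCounts 1.5.0-p3. The authors deposited FPKM rounded to integers, handled as a score in units of FPKM, with 1 value per gene and stage. The way libraries were combined was not given in the sources used here, and the precision between plants is unknown. The study gives a summary of the sequenced reads, but the depth of the libraries was not examined here. Reads had been mapped to an assembly of the green-podded line Ma3, and the effect of sequence differences in FP15 was not tested. Pods of Ma3 were not analysed here.

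Of 30392 genes, 22459 reached 1 FPKM in a stage. Differences were calculated on log2(FPKM + 1) and called at 2-fold, with rounding bounds of 0.5 FPKM. No test was run. The 6 genes and all lists were chosen with earlier results of these data known. Genes are named by rule: the 6 genes, the 13 other decoration genes, for each of the 6 the 3 nearest in shape, the genes around Pt5MAT1 and Pt5MAT2, the highest anthocyanidin synthase and dihydroflavonol reductase copies, PtMYB113a, PtMYB113b, 2 PCR reference genes and seed markers. Psote04G0199400 and Psote06G0099600 fall outside the rule and were named after their values were seen. Gene roles are matches in the study's gene table. No sequence is shown, since the gene table supplied as reference matched 0 gene identifiers. Alternatives covered the pseudocount, 4 rescalings, a minimum of 5 FPKM, a 4-fold threshold and rounding. The work was done in Python 3.11.15 (numpy 2.4.6 and pandas 2.3.3 for values, matplotlib 3.10.9 for plots).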

Additional observations from a re-analysis of the deposited data

How the results depend on the processing

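No direction of a sum or of a called gene was reversed under the alternatives run. No paired analysis was possible because the table holds 1 value per stage and no library columns, and leaving out libraries was not run for the same reason. There were 24 member differences (6 genes in 4 comparisons), and only those that were called can lose a call. Called higher and lower were 2 and 2 at the first step, 1 and 1 at the second and 1 and 2 at the third. Over the whole period the calls were 2 and 3. Calls were lost in 8 differences at a 4-fold threshold and in 4 with scaling to PtELFa and PtTUB6. The loss was 1 each with equal stage sums, median of ratios and the rounding bound, and 0 with a pseudocount of 0.1 or quantile normalization. Scaling to PtELFa and PtTUB6 moved the median of all genes by -0.29, 0.15 and 0.29 at the 3 steps and by 0.15 over the whole period, and equal stage sums moved it by -0.11 at the first step. With it, the log2 ratio of the glucosyltransferase sum from Day 15 to Day 45 was -2.92 in place of -3.13 and that of the acyltransferase sum 2.98 in place of 2.77, which was 2.68 with equal stage sums.

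Counts of genes called among all measured genes moved more. For Day 30 against Day 15, 2126 were higher and 3086 lower. The higher count was 1362 with equal stage sums, 1115 with reference scaling, 530 at 4-fold and 1269 at the rounding bound, and the lower count 688 at 4-fold, 1554 at the rounding bound and 1783 with a 5 FPKM minimum. For Day 37 against Day 30, the 780 higher became 214 with equal sums, 219 with median of ratios, 383 with reference scaling, 36 at 4-fold, 150 at the rounding bound and 282 with the 5 FPKM minimum. The 828 lower became 281 with equal sums, 120 with reference scaling, 11 at 4-fold, 97 at the rounding bound and 315 with the 5 FPKM minimum. For Day 45 against Day 37, the 792 higher became 47 at 4-fold, 175 at the rounding bound and 271 with the 5 FPKM minimum. The 1152 lower became 364 with equal sums, 385 with median of ratios, 258 with reference scaling, 51 at 4-fold, 249 at the rounding bound and 624 with the 5 FPKM minimum. For Day 45 against Day 15, the 3206 higher became 1020 at 4-fold and 2093 at the rounding bound, and the 4350 lower became 1449, 2567 and, with the 5 FPKM minimum, 2729. Fewer genes are tested under the minimum, and steps between listed values of 0 and 1 lie exactly on the 2-fold threshold. The other causes were not tested. Of the 13 other decoration genes, 3 were higher and 1 lower at 4-fold.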

Other observations

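The genes around Pt5MAT1 and Pt5MAT2 were in part listed at 0, in part level and in part called higher. Within the 11 consecutive gene identifiers from Psote05G0030000 to Psote05G0031000, 3 were listed at 0 at all stages (Psote05G0030100, Psote05G0030300 and Psote05G0031000). Psote05G0030000 was at 18 to 19 FPKM, Psote05G0030700 at 9 to 12 FPKM, Psote05G0030800 at 18 to 23 FPKM and Psote05G0030900 at 8 to 12 FPKM, none of them called at Day 45 against Day 15. Psote05G0030600, next to Pt5MAT1, was called higher on 1, 2, 2 and 3 FPKM, although rounding allows a difference as low as 0.49. At Day 45 against Day 15 the calls in this stretch were thus for Psote05G0030200, Pt5MAT1 and Psote05G0030600. Pt5MAT2 was called higher at Day 30 against Day 15 (1.18).

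On chromosome 7, the UDP-sugar transferase gene Psote07G0020200 lies 31.9 kb from Psote07G0019700 and was listed at 1 FPKM at Day 15 and at 0 from Day 30 on. Both were thus at their highest at Day 15, at levels of 1 and 68 FPKM. Psote04G0091700, matched to the sterol glucosyltransferase TT15, was at 18, 14, 13 and 13 FPKM and not called.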
